A study of Mus musculus with 2 samples.

Results

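The genes described here are 9 genes of the B lineage and of plasma cells, namely Jchain (named Igj on the array), Cd79a, Cd79b, Ms4a1, Pax5, Ebf1, Blnk, Vpreb1 and Igll1. They were chosen by name, with the wild-type against p38KO differences of these same arrays already known, so their values below are a description. They are 9 of 22563 genes named on the array, and 8 of the 9 were among the 17206 genes with signal well above background on at least 1 array. The exception was Igll1. The 9 genes were read by 11 probes, each with 1 spot per array.

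Total RNA was measured in long-term hematopoietic stem cells (LT-HSC) sorted from the bone marrow of C57BL/6J mice at 2 years of age, on 2 single-colour arrays. One array held wild-type LT-HSC. Per the methods of the study, its controls carried floxed p38α but no Cre, received tamoxifen (TAM) as well and were matched for age. The other array held p38KO LT-HSC, from mice with floxed p38α and the CAG-CreERT2 transgene, which a broadly active promoter drives in cells of many types, given TAM at approximately 1 year of age (50 to 60 weeks) to delete p38α. The labels give the sorted cells as CD150+CD48-Flt3-CD34- LSK, that is, cells with Sca-1 and c-Kit on their surface and without markers of mature blood lineages, so that the sort selects against B cells. The methods add CD41-. The number of mice behind each array is not given in the sources used here, and both sexes were used. With 1 array per genotype there was no replicate, so no p-value was computed, and the error given with a value is the scanner's own error model for the spot.

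B cells arise from stem cells through lymphoid progenitors, in which the transcription factors Ebf1 and Pax5 set the B lineage program. Early B cell precursors make a surrogate light chain of Vpreb1 and Igll1 before a light chain gene is rearranged, and all later B cells signal through Cd79a and Cd79b, which sit beside the surface immunoglobulin, and through the adaptor Blnk. Plasma cells, which live in the bone marrow, stop making much of this machinery and secrete immunoglobulin, and Jchain joins the secreted IgA and IgM into polymers.

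The 60-base probes for Cd79a and Pax5 are printed because these are the 2 members read by 2 probes each, which can be set against each other. The probe for Igll1 is printed because it gave no measurable level. The genome coordinates of probes are those of the array design, on mm9. The second Cd79a probe aligned within chr7:25684357-25684614 over a stretch of 258 bases, longer than the probe, so that it crosses an exon junction of the transcript. The first Cd79a probe, at chr7:25686823-25686882, lay near the end of the transcript and is not printed.
Cd79a, second probe: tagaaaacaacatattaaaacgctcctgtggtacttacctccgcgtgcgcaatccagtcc
Pax5, first probe: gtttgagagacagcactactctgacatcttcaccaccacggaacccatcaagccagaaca
Pax5, second probe: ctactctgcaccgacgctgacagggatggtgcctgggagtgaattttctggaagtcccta
Igll1: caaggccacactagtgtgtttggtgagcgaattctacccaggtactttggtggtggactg

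The 250 bases before the transcription start, from RefSeq on GRCm38.p6, were available for 7 of the 9 members, at 8 start sites. Cd79b and Ms4a1 were not matched. Each window was searched on both strands for the EBF core CCCNNGGG, the octamer ATGCAAAT, to which Oct factors bind in immunoglobulin promoters, and the E box CAGGTG, to which E proteins bind. No pair of matches overlapped in a member. The E box was found in 4 of the 7 members (Cd79a, Blnk, Vpreb1 and Igll1), the octamer in 1 (Blnk) and the EBF core in 1 (Igll1). Over all 32851 windows of the same length, 17.2% held the E box, 1.60% the octamer and 11.8% the EBF core. A longer EBF motif, with T before and A after the core, had been searched first and was found in 0 members and 0.779% of all windows. A match of letters is not a bound site, and an absent match says only that these letters are not in this window. The windows of 4 members follow, chosen because Jchain and Cd79a differed most between the arrays and because Blnk and Vpreb1 hold matches while differing less. Capitals mark the matched motif letters on either strand. The windows lie at chr5:88527898-88528147 on the minus strand for Jchain, chr7:24897247-24897496 on the plus strand for Cd79a, chr19:40994222-40994471 on the minus strand for Blnk and chr16:16869256-16869505 on the minus strand for Vpreb1.
Jchain promoter: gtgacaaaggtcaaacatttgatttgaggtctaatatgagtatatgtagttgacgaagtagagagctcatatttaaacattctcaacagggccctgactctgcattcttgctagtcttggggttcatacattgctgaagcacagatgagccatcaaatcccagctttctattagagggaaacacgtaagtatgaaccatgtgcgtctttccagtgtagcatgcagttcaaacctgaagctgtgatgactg
Cd79a promoter: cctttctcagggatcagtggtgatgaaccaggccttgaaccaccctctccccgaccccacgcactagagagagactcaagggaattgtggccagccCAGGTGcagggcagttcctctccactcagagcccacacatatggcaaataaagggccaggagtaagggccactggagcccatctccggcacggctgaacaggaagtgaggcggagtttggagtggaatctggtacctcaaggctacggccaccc
Blnk promoter: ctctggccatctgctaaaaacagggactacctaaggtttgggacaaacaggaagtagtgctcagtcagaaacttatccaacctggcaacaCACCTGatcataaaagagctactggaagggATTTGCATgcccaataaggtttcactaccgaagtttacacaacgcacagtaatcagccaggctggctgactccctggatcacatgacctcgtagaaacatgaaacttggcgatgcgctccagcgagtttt
Vpreb1 promoter: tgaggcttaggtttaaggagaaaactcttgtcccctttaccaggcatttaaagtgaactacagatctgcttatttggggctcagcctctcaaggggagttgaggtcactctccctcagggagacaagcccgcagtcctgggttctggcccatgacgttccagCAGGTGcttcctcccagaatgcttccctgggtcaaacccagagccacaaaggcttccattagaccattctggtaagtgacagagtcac
The E box began 154 bases before the start in Cd79a, 160 in Blnk and 88 in Vpreb1. In Blnk the octamer followed it, beginning 130 bases before the start. Jchain, which stood furthest apart between the arrays, held none of the searched motifs in this window.

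Signals are given in scanner units, and differences as log2 of p38KO over wild-type after each array's 75th percentile was subtracted, so a difference of 0 means an equal signal relative to that percentile. A difference of 1 is 2-fold. A probe that the scanner did not mark as well above background is called dim. The 75th percentile was 7.16 on the log2 scale on the wild-type array and 6.85 on the p38KO array, and 67.9% and 69.0% of the 55662 probes were well above background. The median difference over all genes was -0.03. Mapk14, which encodes p38α, read 728 and 569 at its brighter probe and 605 and 468 at the other, a difference of -0.04 and -0.05. The targeted gene thus did not set the arrays apart. Whether these probes lie outside the floxed part is not known here, so they do not check the labels, and each direction below rests on the label of the array.

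Jchain was the member that differed most. Its signal was 162 ± 16.3 (scanner error) on the wild-type array and 1755 ± 175 on the array labelled p38KO. The difference was 3.75 ± 0.20 on the log2 scale, a 13.5-fold higher level, and it ranked number 4 from the highest of 17206 genes. Above it stood Tnfrsf17, Igha and Chil3, a chitinase-like protein of myeloid cells that was named after its value was seen. In a sorted sample such a level can change with the share of cells that carry the transcript or with its amount in each cell, and the array cannot tell these apart.

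Cd79a, one chain of the signalling pair of the B cell receptor, was the only other member at least 2-fold higher at its brightest probe. That probe read 41.7 ± 4.45 and 80.3 ± 8.11, a difference of 1.26 ± 0.21. With the background corrected by normexp (offset 50) it was 0.71, under 2-fold. The second probe, the one across an exon junction, read 10.1 ± 1.70 and 61.4 ± 6.23, a difference of 2.92 ± 0.28. Both probes were higher on the p38KO array, but they disagreed on the size by 1.65 on the log2 scale. Among 3592 genes with 2 probes well above background on both arrays, the median gap between probes was 0.43, and 4.79% of those genes had a gap as large. The partner chain Cd79b did not move with Cd79a. Its signal was 125 ± 12.6 on the wild-type array and 106 ± 10.7 on the p38KO array, a difference of 0.09 ± 0.21, which is smaller than the scanner error. It ranked number 7106.

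Blnk, the adaptor that links the receptor to its downstream enzymes, read 9.70 ± 1.55 and 15.4 ± 1.79. The difference of 0.99 ± 0.29 placed it just under 2-fold, and after normexp it was 0.37. Ms4a1, which encodes CD20 of mature B cells, was dim on the wild-type array, at 2.26, and read 8.09 ± 1.28 on the p38KO array. A signal well above background was never lower than 5.71 on the wild-type array, so Ms4a1 was at least 1.77-fold higher. This bound, 0.82 on the log2 scale, was 0.29 after normexp. Signals this low were the least precise. Probes spotted at least 3 times on the array with a mean signal from 3 to 10 had a median SD of the difference of 0.63 between their spots, against 0.27 from 10 to 50, 0.12 from 50 to 200 and 0.07 above 200.

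Of the transcription factors, Pax5 was read by 2 probes that gave like differences. The first read 36.7 ± 3.85 and 47.5 ± 4.83, a difference of 0.69 ± 0.21. The second read 7.17 ± 1.57 and 8.14 ± 1.33, a difference of 0.50 ± 0.39. Their gap was 0.19, below the median gap between probes of a gene. Ebf1 was dim on the wild-type array, at 1.37, and read 6.00 ± 1.19 on the p38KO array, at least 1.31-fold higher in this processing. The bound, 0.39 on the log2 scale, was 0.25 after loess and 0.28 after normexp. In each case it was smaller than the SD of 0.63 between repeated spots at such low signals. Pax5 thus stayed under 2-fold at both probes, and for Ebf1 only a lower bound could be given.

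The surrogate light chain genes showed no member at least 2-fold higher. Vpreb1 read 168 ± 16.9 on the wild-type array and 163 ± 16.3 on the p38KO array. The difference was 0.27 ± 0.20 and the rank 4933. Igll1, the other part of the surrogate chain, was dim on both arrays, at 6.03 and 0.97, so no fold was computed. Vpreb1 was thus well above background in both samples, and its partner in neither.

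**Figure D1:**
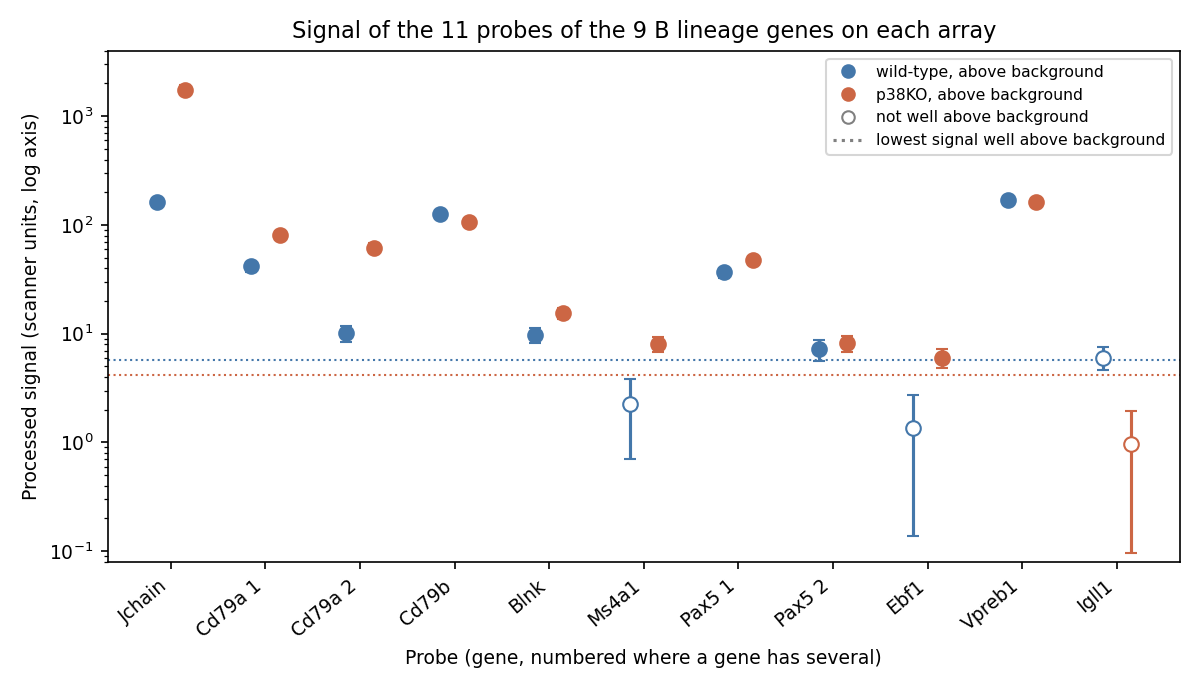
Signal of each probe (vertical, scanner units, log axis) for the 9 genes along the horizontal axis, wild-type in blue and p38KO in orange, with bars for the scanner error, open circles for probes not well above background and dotted lines for the lowest signal well above background on each array. Jchain rises from 162 to 1755, while Cd79b and Vpreb1 lie nearly level.

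Over the 8 measured members, 2 (Jchain and Cd79a) reached 2-fold upward on the p38KO array and 0 reached it downward. Over all 17206 genes 4.15% reached 2-fold upward and 6.71% downward. All 8 values lay above 0, from 0.09 for Cd79b to 3.75 for Jchain, and their median was 0.75. For Ms4a1 and Ebf1, dim on the wild-type array, the filter and the floor left little room for a value below 0. Igll1, which read 6.03 on the wild-type and 0.97 on the p38KO array, was left out as dim on both. The value of Cd79b was smaller than its scanner error of 0.21. That all 8 lay above 0 is therefore no measure of a shared direction. Since the members were chosen with this contrast known, these counts say what the members do and carry no test. The summed scaled signal of the 8 genes was 3.87 on the wild-type and 19.0 on the p38KO array, a ratio of 4.90. Jchain alone gave 1.13 and 15.2 of these sums, and without it the ratio was 1.35.

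**Figure D2:**
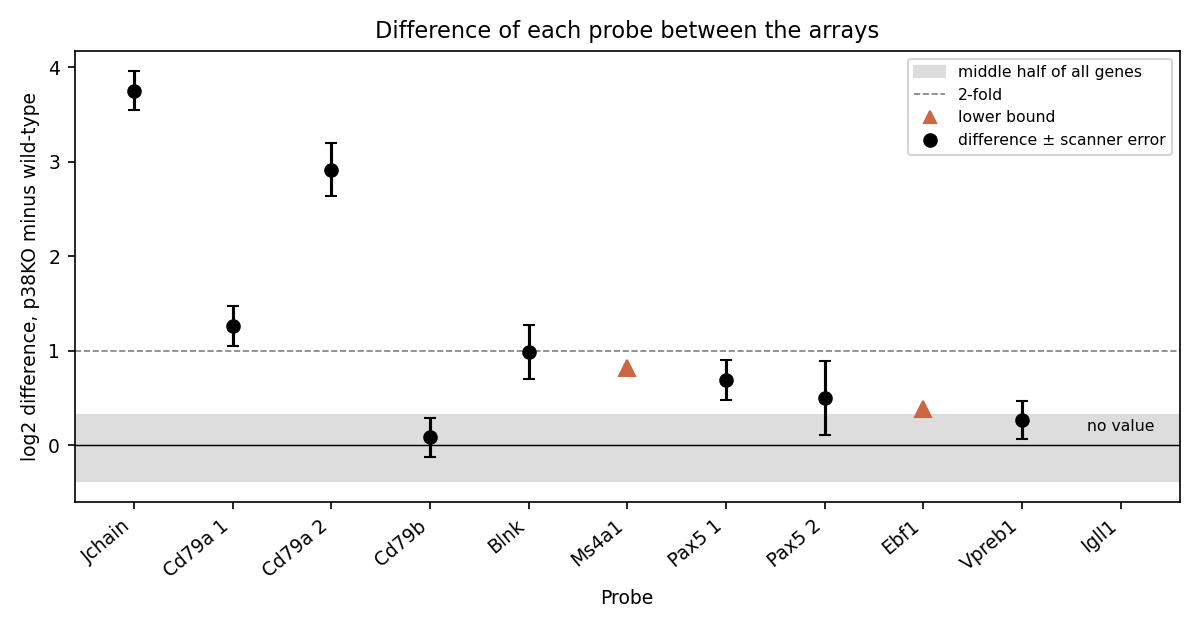
Difference of each probe between the arrays (vertical, log2 p38KO minus wild-type) with the scanner error as bars, triangles for lower bounds, a grey band for the middle 50% of all genes (-0.38 to 0.33) and a dashed line at 2-fold. Jchain and both Cd79a probes lie above the line, Blnk just under it, and Cd79b and Vpreb1 inside the band.

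Transcripts of immunoglobulin itself were among those that differed most. On this array most immunoglobulin genes are named only by a description, so the constant genes were matched by it and the remaining probes were taken by description after their values had been seen. Of 13 constant genes listed, 9 were matched and 8 were measured. The heavy constant alpha gene Igha, the constant part of IgA, read 1835 and 35202 at one probe and 1684 and 30343 at the other. The differences were 4.58 ± 0.20 and 4.49 ± 0.20, and Igha ranked number 2 of all genes. Both probes thus gave nearly the same difference. The kappa constant gene Igkc, carried by most mouse light chains, read 9557 on the wild-type array and 26922 on the p38KO array, a difference of 1.81 ± 0.20.

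The other constant genes differed less evenly. Iglc2, a lambda constant gene, read 62.2 and 435 at its brighter probe, a difference of 3.12 ± 0.21, and its second probe gave 3.40 ± 0.21. Ighg3 was dim on the wild-type array, at 1.21, and read 54.1 on the p38KO array, at least 11.8-fold higher. For Ighg1 the probes disagreed, with 150 and 274 at the brighter, a difference of 1.19 ± 0.20, and 51.9 and 458 at the other, a difference of 3.46 ± 0.21. Ighm, of IgM, read 231 and 403 over 10 spots, a difference of 1.12 ± 0.20, and Ighg2c read 7.24 and 12.4, a difference of 1.09 ± 0.33. Ighg2b was the measured constant gene under 2-fold, at 389 and 570, a difference of 0.87 ± 0.20, while Ighe was dim on both arrays. Altogether 7 of the 8 measured constant genes were at least 2-fold higher, with a median of 1.50. After normexp 4 were (Igha, Ighg3, Igkc and Iglc2), against 0.308% of all genes under that setting.

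Over all 204 probes with an immunoglobulin chain description, 189 were measured and 130 of these (68.8%) were at least 2-fold higher on the p38KO array, against 6.33% of all 40414 probes measured. A further 16 (8.47%) were at least 2-fold lower, against 7.52% of all probes measured, a share near the background. The median over the 189 was 1.53. The filter let in 24 variable, 1 constant and 3 other probes through the p38KO array alone. Through the wild-type array alone it let in 8 variable probes. For such probes the filter and the floor left little room for the opposite direction. Among the 153 probes well above background on both arrays, 107 were at least 2-fold higher, with a median of 1.50. Under that filter 3.23% of all genes reached 2-fold upward. For heavy chains 63 of 100 measured probes were at least 2-fold higher, for kappa chains 60 of 80 for lambda chains 5 of 6 and for descriptions that name no chain 2 of 3. Variable regions, which differ from one B cell clone to the next, were spread widely. As examples taken for their high p38KO signal, heavy variable V14-3 read 630 on the wild-type and 10902 on the p38KO array, and kappa variable 14-111 read 199 and 3903. Their differences were 4.43 and 4.61. Of the 165 measured variable probes, 110 reached 2-fold upward and 15 downward, and among the 133 well above background on both arrays the differences ran from -3.29 to 5.93. These genes form families of near-identical copies, so a probe may bind transcripts of several members, and the counts are of probes, not of independent genes.

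**Figure D3:**
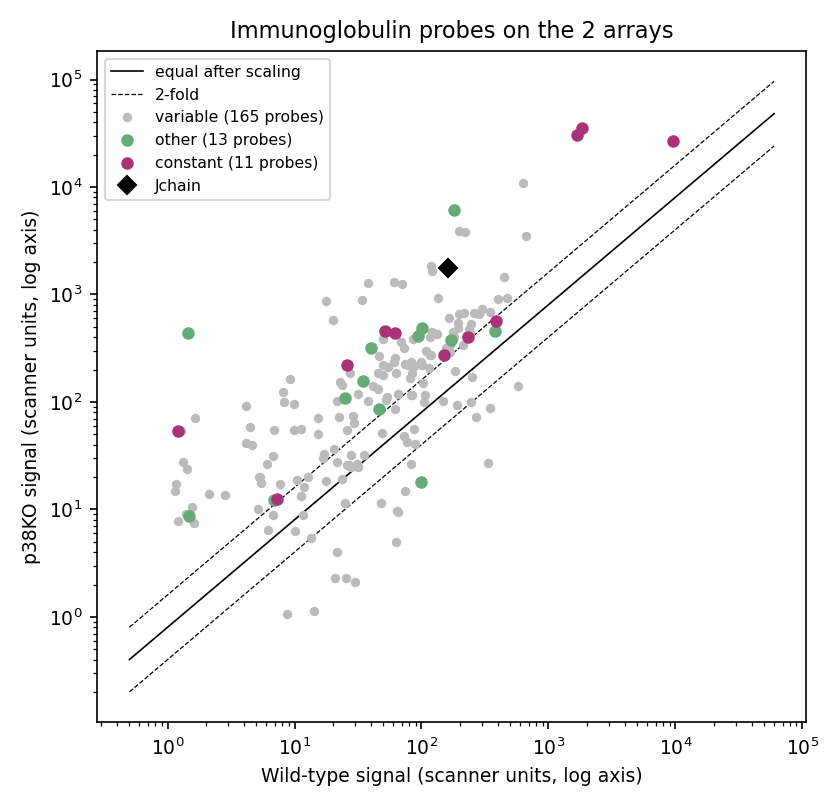
Signal of each measured immunoglobulin probe on the p38KO array (vertical) against the wild-type array (horizontal), both in scanner units on log axes, for constant (11), variable (165) and other (13) probes, with Jchain as a diamond, a solid line for equal scaled signal and dashed lines at 2-fold. Most probes lie above the upper dashed line, as Jchain does, and 16 lie below the lower one.

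Genes of plasma cells were split. The list held 22 genes, all measured. Of these, 6 (27.3%) reached 2-fold upward and 0 downward, against 4.15% and 6.71% of all genes, and the list median was 0.01. Tnfrsf17, the receptor BCMA of plasma cells, was dim on the wild-type array, at 2.36, and read 113 on the p38KO array, at least 24.6-fold higher and number 1 of all genes. Tent5c, a poly(A) polymerase that acts on immunoglobulin transcripts, read 8.95 and 31.5, a difference of 2.13 ± 0.31. These 2 were the most distant of the list. The transcription factor Irf4, needed for plasma cell differentiation, read 15.9 and 34.8, a difference of 1.45 ± 0.25. Mzb1, a chaperone of immunoglobulin assembly, read 22.5 and 47.1, a difference of 1.41 ± 0.22. Derl3, of the degradation machinery of the endoplasmic reticulum, read 14.2 and 28.6, a difference of 1.33 ± 0.26. The costimulatory receptor Cd28 read 245 and 400 with a difference of 1.02 ± 0.20. The other 16 listed genes lay between -0.58 and 0.97. Among them, named after their values were seen, were Prdm1 (0.97), the repressor that sets the plasma cell program, Sdc1 (0.69), a surface marker of plasma cells, Xbp1 (-0.03), a factor that drives secretion, and Creld2 (-0.58), of the endoplasmic reticulum. After normexp, where 0.308% of all genes reached 2-fold upward, only Tnfrsf17 of the list did, at 1.84 and number 7 of all genes. After loess it was number 2.

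Among 17 measured genes of mature B cells 4 (23.5%) reached 2-fold upward and 0 downward, against 4.15% and 6.71% of all genes, with a median of 0.18. Pou2af1, the coactivator of Oct factors at immunoglobulin promoters, read 48.9 and 236, a difference of 2.59 ± 0.21, and 1.67 after normexp. Fcmr, the receptor for the constant part of IgM, read 7.83 and 27.2, a difference of 2.12 ± 0.33. Irf8, a transcription factor of B and myeloid cells, read 8.32 and 18.0, a difference of 1.43 ± 0.30. Tnfrsf13c, the receptor for the survival factor BAFF, read 47.0 and 81.9 with a difference of 1.12 ± 0.21, and its second probe gave 1.35 ± 0.24. Cxcr5, Cd40 and Spib were dim on both arrays. After normexp Pou2af1 was the gene of this list still past 2-fold.

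The 19 measured genes of B cell receptor signalling other than the members had a median of 0.12. Of these 0 reached 2-fold upward and 2 (10.5%) downward, against 4.15% and 6.71% of all genes. The downward count was thus near the share over all genes. Cd72, an inhibitory receptor of B cells, read 171 and 60.5 at its brighter probe, a difference of -1.18 ± 0.21, and its second probe gave -0.37 ± 0.21. Bank1, a scaffold of the pathway, read 13.9 on the wild-type array and was dim on the p38KO array, at least 2.67-fold lower. Of the 13 measured genes of early B lineage cells 1 was at least 2-fold higher, namely Dntt, the terminal transferase that adds bases at rearranged joints, which read 124 and 202 with a difference of 1.02 ± 0.20. That 1 gene made 7.69% of the list, against 4.15% of all genes. The list median was 0.16. After normexp Cd72, Bank1 and Dntt no longer reached 2-fold.

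**Figure D4:**
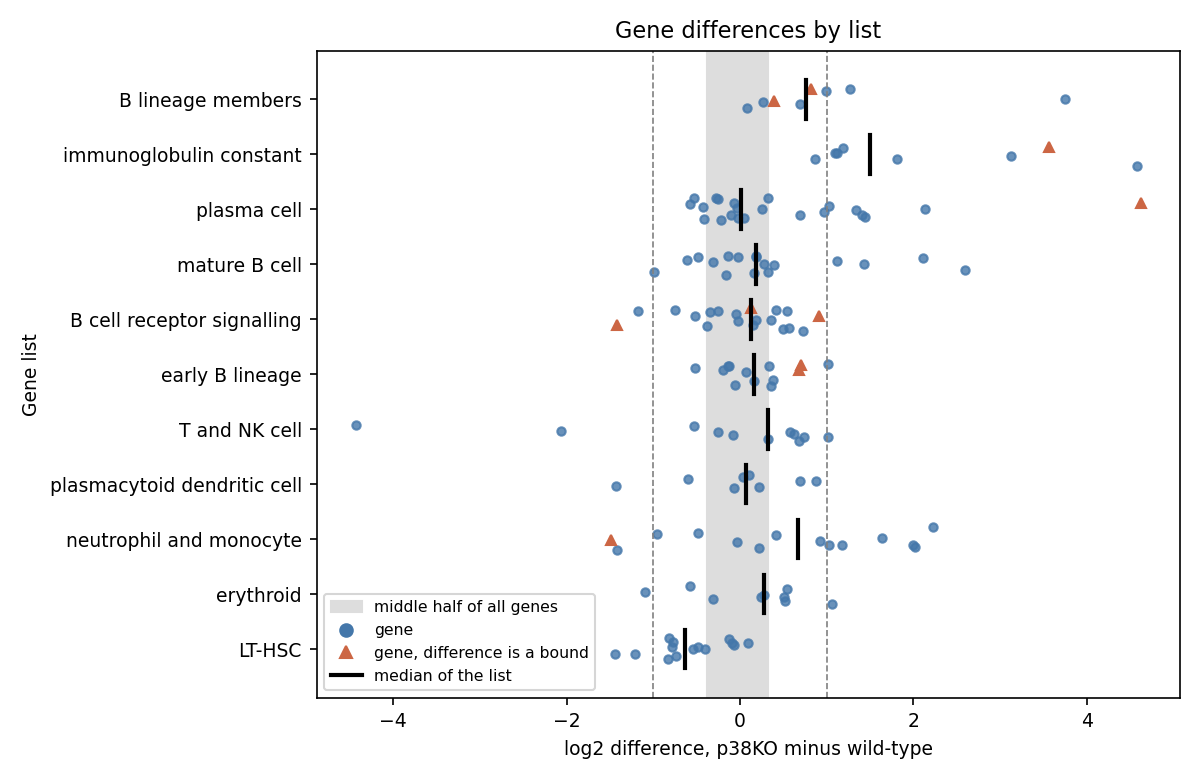
Difference of each measured gene (horizontal, log2 p38KO minus wild-type) for the members and 10 other gene lists (vertical), with a black bar at each list's median, triangles for bounds, a grey band for the middle 50% of all genes and dashed lines at 2-fold. The immunoglobulin constant list has the highest median, 1.50, and the LT-HSC list the lowest, -0.64.

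Markers of other cell types also differed between the arrays, and their part in the values above was not tested. Of 14 measured neutrophil and monocyte genes, 6 reached 2-fold upward and 2 downward, with a median of 0.67, and the median was between 0.34 and 0.92 under the alternatives. The summed scaled signal was 219 on the wild-type and 299 on the p38KO array, of which 1 probe of Itgam gave 182 and 243. Ltf, S100a9, Ngp, S100a8 and Camp, made in maturing neutrophils, differed by 2.23, 2.01, 1.99, 1.63 and 1.18. Of genes of earlier granulocyte precursors, Mpo differed by 1.02 at its brighter probe and 0.73 at the other, and Elane by -1.41. Ly6g was at least 2.80-fold lower. Of 11 measured T and NK cell genes, 1 reached 2-fold upward and 2 downward, with a median of 0.32, which was -0.08 without the filter on dim genes, and sums of 27.2 and 30.6. Cd3e differed by 1.02 and Cd2 by -2.07, Zap70 by -4.43 at one probe and -0.03 at the other, and Cd3d and Cd3g were dim on both arrays. Of 8 plasmacytoid dendritic cell genes 0 reached 2-fold upward at their brightest probe and 1 (Ccr9, -1.43) downward, with sums of 30.9 and 35.5. Siglech differed by 0.22 at its brightest probe and by 1.04 at another, which read 15.7 and 25.8. Of 9 erythroid genes 1 (Slc4a1, 1.06) reached 2-fold upward and 1 (Hbb-bt, -1.10) downward, with sums of 81.3 and 71.3. Over all genes 4.15% reached 2-fold upward and 6.71% downward, so counts of 1 or 2 genes in lists this short are not set apart from those shares. After normexp Zap70 (downward), S100a8 and S100a9 were the genes of these lists still past 2-fold.

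Of the genes that mark LT-HSC, all 14 listed were well above background on both arrays. Of these 13 were lower on the p38KO array, against 9005 of all 17206 genes, and the median was -0.64. Only 2 (14.3%), Mecom and Procr, were at least 2-fold lower, against 6.71% of all genes, and 0 were at least 2-fold higher. The summed scaled signals were 178 and 139. Mecom differed by -1.44 at its brightest probe but by 0.61 and -0.10 at the other two, Procr by -1.22 and Kit by -0.09. Cd48, whose protein the sort selected against, read 34.3 and 71.3 at its brighter probe, a difference of 1.37 ± 0.21. Its second probe read 26.5 and 24.3, a difference of 0.19 ± 0.23. The sort also selected against the proteins of Cd34 and Flt3. Cd34 was lower on the p38KO array, by -0.15 at its brighter probe and -0.997 at the other. Flt3 differed by 0.36 at its brightest probe and by 0.88 and -0.07 at the others. These 3 genes thus did not share a direction. After normexp Procr was still past 2-fold, and Mecom and Cd48 were not. The array with the higher Jchain and immunoglobulin signals thus also had lower signals of most LT-HSC genes. It had higher signals of 9 of the 14 neutrophil and monocyte genes and lower signals of 5, among them Elane and Ly6g.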

How the data were processed

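RNA of 2 sorted LT-HSC samples was hybridised with Cy3 to 1 Agilent array each. Per the labels, the authors' scanner files came from Agilent Feature Extraction 11.5.1.1 and hold processed intensity per spot. A second table deposited by the authors holds normalized log2 values, close to the log2 intensity less an offset near the array's 75th percentile. Over the probes that offset spanned a range of 0.12 on the wild-type array and 0.13 on the p38KO array. From the intensities, spots flagged as outliers on either array were left out, which removed 19 probes entirely. Log2 values were averaged over the remaining spots of a probe, and each array's 75th percentile was subtracted (Python 3.11.15, pandas 2.3.3, with alternatives in limma 3.58.1). Probes were named from the file or RefSeq. A gene took its brightest probe, and a gene well above background on neither array was left out. A dim side was set to the lowest signal well above background or its own, whichever was higher. With 1 array per group, at least 2-fold stands for a call. Named genes are the members, Mapk14 and, in other lists, genes at least 2-fold apart (at most 6 a list, plus bounds) and the cell type markers Cd3e, Siglech, S100a8, Elane, Hbb-bt, Kit and Procr. Others are named as dim, as completing a list or after their values were seen. Members and lists were chosen with earlier results of these data known. Scripts were tested on simulated data. The array count limits the precision.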

Additional observations from a re-analysis of the deposited data

How the results depend on the processing

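No paired analysis was possible because each genotype has 1 array, and no array could be left out for the same reason. Other scalings, backgrounds, probe rules and filters were tried, on the immunoglobulin probes as an addition made after seeing the data. Jchain stayed between 3.29 and 3.82 throughout, Igha between 4.42 and 4.65, and Cd79b between 0.05 and 0.09. Loess with a span of 0.3 gave a members' median of 0.66 and an early B lineage median of 0.25. Prdm1 passed 2-fold under quantile normalization and loess, making 7 plasma cell genes, against 4.12% and 3.55% of all genes. Ighg2c fell under 2-fold after loess, leaving 6 constant genes. Normexp with an offset of 50, which draws dim signals together, gave a members' median of 0.33 and 1 member at least 2-fold higher (Jchain). It gave 1.05 for immunoglobulin constant genes and 0.95 for immunoglobulin probes, of which 91 were at least 2-fold higher, against 130 in the main processing. Of all genes, 4.15% reached 2-fold upward in the main processing and 0.308% after normexp. Tnfrsf17 was 1.84 and Pou2af1 1.67 there, and Tnfrsf17 5.89 without the floor. Jchain ranked between 2 and 4 of all genes except without the floor, where it was number 25. In the authors' normalized values the members' median was 0.84 over 6 members and that of constant genes 1.19. Averaging the probes of a gene gave 0.073 for early B lineage, -0.015 for receptor signalling and 2.07 for constant genes, and Cd79a was 2.09. Restricting to probes bright on both arrays gave 0.84 for the members, 0.073 for early B lineage and 1.19 for constant genes. Without the filter these were 0.073 for early B lineage, 0.069 for mature B cells and 1.19 for constant genes. Without the floor the members' median was 1.13, with 4 members at least 2-fold higher, and immunoglobulin probes had 1.65. Ms4a1 (2.16) and Ebf1 (2.45) then count their dim wild-type signal. Both fell elsewhere, Ms4a1 to 0.68 after loess and 0.29 after normexp, and Ebf1 to 0.25 and 0.28. The lower bounds given for these 2 members thus depend on the processing. Quantile normalization and centring on the median of bright probes moved none of these summaries beyond the spread between repeated spots.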
